A study of Saccharomyces cerevisiae with 136 samples.

Results

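Replicatively old yeast mother cells were compared with young ones across the whole transcriptome. The comparison took every cell isolated at 36 h that has values in the deposited table, 45 of 49 labelled cells, and every cell isolated at 2 h, 37 of 38. These are 82 of the 125 cells of the table, and no gene list of the study was used to choose genes. All cells are labelled wild type (WT) Saccharomyces cerevisiae grown on SD solid agar, where newborn daughters of small cells lined up on the plate were kept, the lined-up cells were removed, and the kept cells were picked by hand 2, 16 or 36 h after birth. Each picked cell was lysed in its own tube and gave 1 Smart-seq2 library, which covers whole transcripts with a poly(A) tail and uses PCR with no molecular identifiers.

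No label names a culture or plate for any cell, so each age group counts as 1 sample (n = 1) and cells are not replicate cultures. Differences between 36 h and 2 h therefore have no replicate check, no p value is given, and each SD describes the spread among cells. Values are relative within a cell, so the amount of RNA per cell was not measured here, and plate, time of harvest and age cannot be told apart.

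Budding yeast ages replicatively: a mother cell gives a limited number of daughters and then stops dividing. In a growing cell most transcription serves ribosomes, namely the ribosomal proteins, the nucleolar factors that assemble them and the RNA polymerases that make ribosomal RNA. When growth slows or stress sets in, yeast lowers these genes and raises a common set of protective genes for storage sugars, antioxidants and chaperones, many of which are activated by the transcription factors Msn2 and Msn4.

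A median of 270573 reads per cell fell on genes at 2 h, with a range of 58596 to 753691, and of 252159 at 36 h, with a range of 40883 to 753762. Cells had reads of 2078 ± 268 genes (SD among cells) at 2 h and of 2229 ± 552 at 36 h. The titles of the samples name the strain BY4741 and the other labels BY4742, strains of opposite mating type, so the mating type genes were examined. Both alpha-factor genes, which only MATα cells express, were found in 19 of 37 cells each at 2 h, and in 18 (MF(ALPHA)1) and 11 (MF(ALPHA)2) of 45 cells at 36 h. STE2, the pheromone receptor of MATa cells, had reads in 1 of 37 and in 0 of 45 cells, which allows a share of up to 6.67% (3 of 45) at 36 h. Of the other MATa genes measured, BAR1 had reads in 2 cells of each age, and STE6 in 5 of 37 and 10 of 45 cells. LYS2, deleted in BY4742, had 16 reads in 3 cells at 2 h and 0 reads at 36 h. The genes of a MATα strain, the mating type of BY4742, were thus detected at both ages. MET17, deleted in BY4741 and present in BY4742, is not among the genes with values. With that and the reads of LYS2, these markers do not settle the strain. STE3, the pheromone receptor of MATα cells, was detected in 21 of 37 young and 7 of 45 old cells, and its difference was −2.23. SAG1, also specific to MATα cells, was detected in 7 of 37 and 9 of 45 cells, with a difference of 0.07. Genes specific to haploid cells had differences of both signs: STE5 (−1.60), FUS3 (−1.28), STE4 (−0.23), STE18 (0.61) and GPA1 (0.69).

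Markers of a bud or daughter cell differed between the ages (DSE1, DSE2, DSE3, DSE4, SCW11, CTS1, AMN1 and ASH1). The cells picked at 2 h were kept as newborn daughters, so these genes need not mark an attached cell there. Of 8 such genes, 1 or more was detected in 15 of 37 young and 33 of 45 old cells, and 3 or more in 2 young and 11 old cells. Their summed level, in reads of the gene scaled to a common total of reads on genes (RPM), ran from 0 to 967 with a median of 0 at 2 h, and from 0 to 15590 with a median of 141 at 36 h. SCW11, a cell wall glucanase made in daughters, was the only one without reads at 2 h (0 of 37 cells). The part of attached daughters in the differences below was not tested.

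Differences are of mean log2 normalized counts, 36 h minus 2 h, where a normalized count is the reads of a gene divided by the size factor of its cell, with a pseudocount of 1. On this scale the change of a gene also depends on the share of cells with reads, and it can be understated or overstated. By the log2 ratio of mean normalized counts the median of trehalose genes was 3.80 in place of 4.86. That of glycogen genes was 3.65 in place of 2.00. Of the 5997 genes of the table, 4158 were detected in 25% or more of the cells at either age and were considered. A gene was called higher or lower where the difference reached 2. At 36 h, 313 genes were higher, 7.53% of those considered, and 171 were lower, 4.11%. The differences reached at least 3 for 128 and 38 genes, and at least 4 for 56 and 6 genes. The median over all 4158 genes was 0.33.

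The balance between both directions depended on how cells were scaled. Of all called genes 64.7% were higher with the deposited size factors, against 53.2% with every cell scaled to the same total (268 higher and 236 lower), where the median over all genes was 0.19. Called genes were mostly found in more or fewer cells, not in all or none. The median higher gene had reads in 27.03% of the cells at 2 h and 71.1% at 36 h, and the median lower gene in 89.2% and 42.2%. No called gene had values that separated the 2 h cells from the 36 h cells completely.

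**Figure D1:**
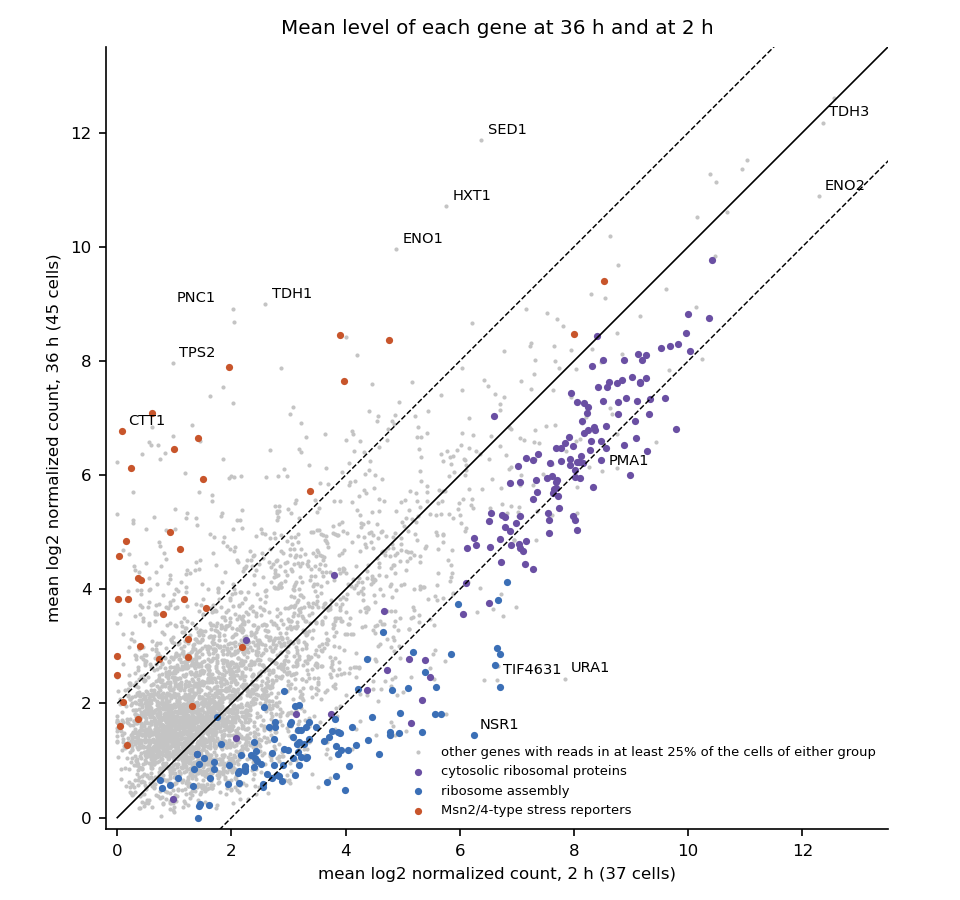
Mean log2 normalized count of each of the 4158 genes considered, at 2 h (x axis, 37 cells) and 36 h (y axis, 45 cells), with the solid line at equal levels and dashed lines at a difference of 2. Stress reporter genes lie above the diagonal, all but 1 of the ribosome assembly genes and most cytosolic ribosomal protein genes lie below it, and TPS2 and URA1 show the largest rise and fall among genes detected in 50% or more of the cells at either age.

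The 15 largest rises were led by genes of storage sugar, redox and carbon metabolism. TPS2 (YDR074W, chromosome IV, 593893 to 596583, R64), the phosphatase that completes trehalose synthesis, had log2 normalized counts of 0.00 (lowest), 0.00 (median) and 8.13 (highest) at 2 h and of 0.00, 9.02 and 12.52 at 36 h. It was read in 8 of 37 and 41 of 45 cells, and its mean rose by 6.99, from 0.97 ± 2.29 to 7.96 ± 3.28 (SD among cells). Summed over cells it had 60.6 RPM (exact Poisson 95% interval 56.0 to 65.4) at 2 h and 2604 (2575 to 2633) at 36 h. A few young cells thus held TPS2 at levels seen in old cells, while in most of them none was detected. Counting intervals cover counting error only, since PCR reads without identifiers are not independent molecules.

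PNC1 (YGL037C), the nicotinamidase that recycles nicotinamide and is known as a regulator of yeast lifespan through Sir2, was 0.00, 0.00 and 7.83 at 2 h and 3.10, 9.02 and 11.80 at 36 h. It was read in 16 of 37 young cells and in every old cell, with a mean difference of 6.89. The probability that an old cell drawn at random exceeded a young one was 0.976, with ties split evenly. For CTT1 (YGR088W), the cytosolic catalase, the values were 0.00, 0.00 and 3.23 at 2 h, with 2 reads in 1 cell, and 0.00, 8.40 and 13.05 at 36 h, in 36 of 45 cells. CTT1 was therefore close to an on and off pattern, yet 9 old cells showed none.

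TKL2, the minor transketolase, had no read in any of the 37 young cells, which allows a share of up to 8.11% (3 of 37), and 1585 RPM at 36 h in 32 of 45 cells. Against a floor of 3 reads over the young group, the ratio was 5783. Since PCR reads without identifiers are not independent molecules, it is not a lower bound on the fold change. The remaining genes of the 15 were DAK1 (dihydroxyacetone kinase, difference of 6.64), RTC3 (6.48), TDH1 (a glyceraldehyde phosphate dehydrogenase, 6.41), HBN1 (similar to nitroreductases, 6.24), AAD4 (a putative aryl-alcohol dehydrogenase, 6.01), OYE3 (an old yellow enzyme, 5.94), GPD1 (glycerol phosphate dehydrogenase, 5.94), NQM1 (a transaldolase homologue, 5.93), ALD3 (an aldehyde dehydrogenase, 5.88), MSC1 (5.80) and GLK1 (glucokinase, 5.76). Of the genes of the table, 7 went from reads in at most 10% of young cells to at least 75% of old cells, among them CTT1, AAD4, NQM1, ALD3 and HSP42. Parts of TDH1, AAD4 and ALD3 occur elsewhere in the genome (15.7%, 21.4% and 40.4% of their 50-base stretches), and GLK1 overlaps another annotated gene, so their reads may include those of other genes.

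**Figure D2:**
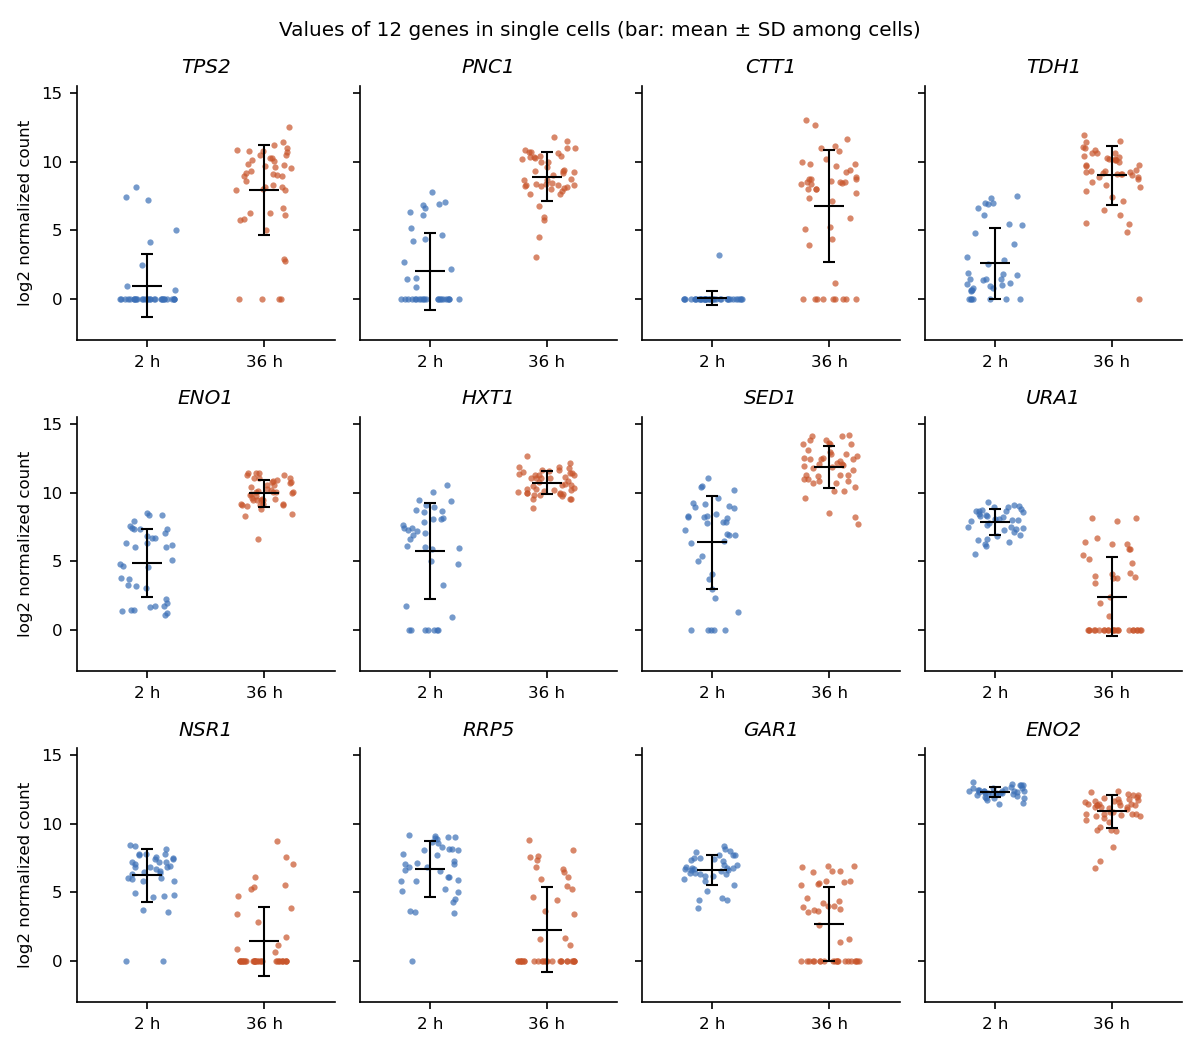
Log2 normalized counts of 12 genes in each of the 37 cells at 2 h and 45 cells at 36 h, with the mean and SD among cells as bars. TPS2, PNC1, CTT1, TDH1, ENO1, HXT1 and SED1 were higher at 36 h, and URA1, NSR1, RRP5 and GAR1 were lower with many cells at 0, while ENO2 shifted by −1.41 with reads in every cell.

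The stress response element AGGGG, the site that Msn2 and Msn4 are known to bind, was searched on both strands in the 300 bases from 350 to 51 bases before each start codon (RefSeq sequence, R64). It was present in 24.7% of the 4014 promoters of genes considered, in 59.9% of 307 promoters of higher genes and in 5.26% of 171 promoters of lower genes. The median share of G and C in these windows was 36%, 38% and 34.3% in the same order. The part of base composition in the shares with the element was not tested. The median difference was 0.20 for genes without it, 0.68 with 1 copy, 1.24 with 2 copies and 2.46 with 3 or more copies. Of the 15 largest rises, 11 had it in this window. A match is a description of the sequence and not a measured site. The windows of CTT1 (1 match, chrVII:654284-654583, plus strand) and GPD1 (2 matches, chrIV:411475-411774, plus strand) are shown 5′ to 3′ towards the start codon, because these genes of the 15 largest rises carry the element in 1 and 2 copies. Capitals mark CCCCT, the reverse complement of AGGGG.

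CTT1: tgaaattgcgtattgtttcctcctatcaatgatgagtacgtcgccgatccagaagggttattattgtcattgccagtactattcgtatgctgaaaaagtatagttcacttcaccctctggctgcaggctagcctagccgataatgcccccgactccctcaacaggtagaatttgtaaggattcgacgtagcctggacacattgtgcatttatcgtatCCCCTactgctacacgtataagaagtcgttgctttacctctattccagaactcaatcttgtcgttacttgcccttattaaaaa
GPD1: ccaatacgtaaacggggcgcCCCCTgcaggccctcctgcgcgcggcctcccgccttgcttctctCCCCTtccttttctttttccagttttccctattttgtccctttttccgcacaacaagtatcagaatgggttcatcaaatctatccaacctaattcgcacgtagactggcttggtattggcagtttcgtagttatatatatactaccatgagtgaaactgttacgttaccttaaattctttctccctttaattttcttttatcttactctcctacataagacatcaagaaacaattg

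Genes of trehalose metabolism were higher as a group, 7 of 9 with a median difference of 4.86 against 0.33 over all genes. Besides TPS2 these were PGM2 (phosphoglucomutase, 5.57), TSL1 (a regulatory subunit of the synthase, 5.56), TPS1 (the synthase, 5.02), UGP1 (3.76), and NTH1 and NTH2, which break trehalose down (4.86 and 2.25). Genes of synthesis and of breakdown were thus both higher. The mean level over the list, 1.29 ± 0.82 at 2 h, was 5.47 ± 2.04 at 36 h, with 3.06 in between at 16 h, and 37 of 45 old cells lay above the highest young cell. Of 8 glycogen genes 4 were higher (median 2.00), again for synthesis (GSY2, glycogen synthase, 4.06, and the branching enzyme GLC3, 2.46) and for breakdown (the phosphorylase GPH1, 2.22). GLC3 and GPH1 were read in only 22 and 18 of 45 old cells.

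A list of 38 genes known to respond to Msn2 and Msn4, of which 36 were considered, had 26 higher and 0 lower genes and a median of 3.21. It included GRE3 (an aldose reductase, 5.22), GAD1 (glutamate decarboxylase, 4.70), GPP2 (glycerol phosphatase, 4.54), the membrane protein HSP12 (3.60) and DDR2 (3.59), in addition to CTT1, GPD1 and ALD3. The level over this list ran from 0.81 to 2.17 in young cells and from 1.22 to 8.43 in old cells. Only 3 of the 45 old cells fell within the range of young cells, and the other 42 lay above it, against 9 within and 36 above with the median over genes as the level of a cell.

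Glycolysis and fermentation had 6 of 27 genes higher and 0 lower, with a median of 0.49 (0.10 with every cell scaled to the same total). The mean level over the list was 5.86 ± 0.52 at 2 h and 7.22 ± 0.87 at 36 h, and 20 of 45 old cells lay above the highest young cell. The higher genes were TDH1, GPD1, GLK1, HXK1 (hexokinase, 5.53), ENO1 (enolase, 5.08) and EMI2 (a glucokinase paralogue, 3.05), and TDH1, GPD1, HXK1 and ENO1 each have a sister gene that did not pass the threshold. ENO1 was 1.12, 5.09 and 8.52 at 2 h and 6.65, 10.04 and 11.45 at 36 h, with a probability of 0.990 that an old cell exceeded a young one, and so nearly separated the ages. Its sister ENO2 was 11.46, 12.32 and 13 at 2 h and 6.81, 11.20 and 12.34 at 36 h, a difference of −1.41. ENO1 and ENO2 share 23.6% of their 50-base stretches with other parts of the genome, which limits how far the reads of 1 can be told from the other. Hexose transport showed 2 higher genes of 7 considered. HXT1, a low-affinity glucose transporter, went from 0.00, 7.06 and 10.59 to 8.91, 10.66 and 12.63, so that every old cell exceeded the young median. HXT5, a transporter known from slow growth, rose by 4.40, from 2 of 37 to 31 of 45 cells.

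Such unequal change within gene pairs was examined over 83 pairs of paralogues or isoenzymes in the table. Both members were considered in 63 pairs, and in 30 of these the differences of the members were at least 2 apart. The share among pairs of unrelated genes was not computed, so this count is not a result about paralogues. The pairs were chosen with earlier results known, and some share a member. The 10 pairs with the largest gap were TDH1 and TDH3 (6.41 and −0.18), ENO1 and ENO2 (5.08 and −1.41), GPD1 and GPD2 (5.94 and −0.50), the catalases CTT1 and CTA1 (6.68 and 0.35), HXK1 and HXK2 (5.53 and −0.76), the transketolases TKL2 and TKL1 (6.23 and −0.02), PGM2 and PGM1 (5.57 and −0.25), the initiation factor subunits TIF4632 and TIF4631 (1.38 and −4.23), SOL4 and SOL3 of the pentose phosphate pathway (3.64 and −1.69), and the malate dehydrogenases MDH1 and MDH2 (4.00 and −1.18). In each of these pairs except TIF4632 and TIF4631, 1 member was higher and the other had a difference of less than 2 in either direction, and in 0 of all pairs were the members called in opposite directions. The member that was higher had reads in few young cells in several pairs, 5 of 37 for HXK1 and 1 of 37 for SOL4, against 37 for HXK2 and 32 for SOL3.

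**Figure D3:**
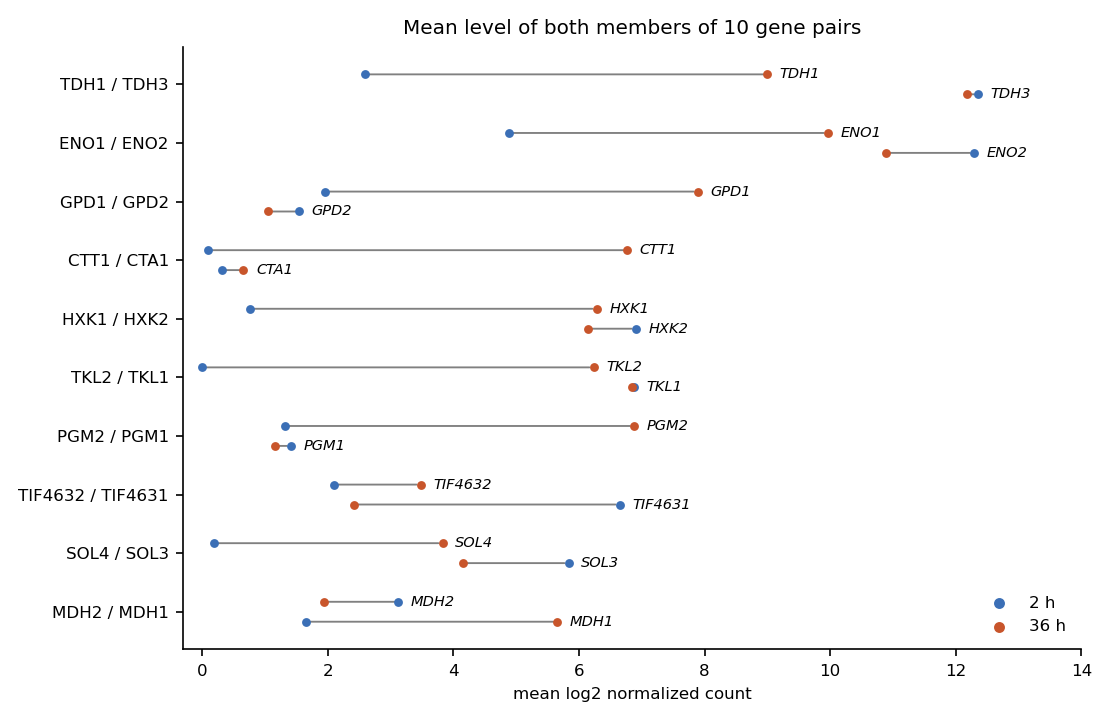
Mean log2 normalized count at 2 h and 36 h of both members of the 10 gene pairs with the largest gap between their differences. The values are not divided by gene length, so only the shift of each gene between the ages can be read: TDH1 moved by 6.41 and TDH3 by −0.18.

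The pentose phosphate pathway supplies NADPH, and 6 of its 14 genes were higher. Next to TKL2, NQM1 and SOL4 these were GND2 (2.98), SOL1 (2.52) and ZWF1, the entry enzyme (2.46), whereas the differences of RKI1 and RPE1, which interconvert pentoses, were −1.55 and −1.29.

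Defence against oxidants was higher in part. Of 12 genes of glutaredoxins and glutathione 6 were higher (median 2.11), led by the glutathione transferase GTT2 (3.89) and the glutaredoxins GRX2 (3.37, overlapping another annotated gene) and GRX1 (3.02), while glutathione reductase GLR1 had a difference of −0.01. CTT1, the mitochondrial superoxide dismutase SOD2 (2.47) and the mitochondrial cytochrome c peroxidase CCP1 (2.38) were higher among 6 genes acting on peroxide and superoxide. Of 13 peroxiredoxins and thioredoxins, PRX1 of mitochondria (3.98) and TSA2 (2.85) were higher, 15.4% against 7.53% of all genes considered. TSA1, the main peroxiredoxin of the cytosol, had a difference of −0.28 with reads in 37 of 37 and 43 of 45 cells.

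Of 24 cytosolic heat shock genes 12 were higher and 1 was lower, with a median of 1.87. The disaggregase HSP104 went from 0.00, 0.00 and 6.70 to 0.00, 7.87 and 11.68, in 12 of 37 and 38 of 45 cells. The small heat shock proteins HSP42 (5.42) and HSP26 (4.01), the glyoxalase HSP31 (4.42) and HSP82 (3.90) were higher too. The lower gene was SSB1 (−2.79), a chaperone of newly made chains on ribosomes. Its near copy SSB2 had a difference of −1.47, and 43.2% of the 50-base stretches of each also occur elsewhere. The constitutive chaperones HSC82 and SSE1 had differences of −0.36 and −0.72, below the threshold. In mitochondria HSP78 (3.61) and MDJ1 (2.97) were higher, 2 of 13 genes (15.4% against 7.53% of all genes considered). The unfolded protein response of the endoplasmic reticulum had 0 of 14 genes called in either direction, with a median of −0.01 and differences between −1.24 (SCJ1) and 1.66 (ERO1).

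Mitochondrial gene lists had medians above that of all genes, and outside the tricarboxylic acid cycle few genes passed the threshold. The tricarboxylic acid cycle had 6 of 17 genes higher (35.3%, median 1.43), among them MDH1 (4.00), citrate synthase CIT1 (3.70) and aconitase ACO1 (3.36). For the nuclear-encoded respiratory chain 2 of 23 genes were higher (median 0.87), QCR9 (2.22) and QCR7 (2.104) of complex III, a share of 8.70% that is close to the 7.53% of all genes. STF2 (4.07) and STF1 (2.84), factors linked to ATP synthase and its inhibitor, were the 2 higher of 17 genes. That is 11.8% against 7.53% of all genes, and the catalytic subunit ATP2 had a difference of −0.62. The mitochondrial ribosome had 1 of 64 genes higher (MRP51, 2.05) with a median of 0.81. None of the 5 mitochondrially encoded genes considered was called, with a median of 0.73. The libraries were primed with oligo-dT, and how far they capture mitochondrially encoded transcripts was not tested, so these values may not reflect transcript levels. COX2 was nearly level in summed reads, with 81.4 RPM at 2 h and 80.9 at 36 h, although its mean log2 difference was 0.73, and it overlaps another annotated gene.

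Genes of protein breakdown had medians from 1.05 to 1.42. In the vacuole the protease PRB1 (4.11), the aminopeptidase APE1 (3.50), the proteinase PEP4 (3.19) and TFS1, an inhibitor of carboxypeptidase Y (4.43), were higher, 4 of 9 genes. Polyubiquitin UBI4 (4.43), the proteasome lid subunit RPN6 (2.29) and RPN4, the transcription factor of proteasome genes (2.25), were the higher ones of 35 proteasome genes, 8.57% against 7.53% of all genes considered, with a median of 1.12. Of 16 autophagy genes ATG8, the membrane conjugate of autophagosomes, was higher (2.50), with reads in 4 of 37 and 27 of 45 cells. That share, 6.25%, is close to the 7.53% of all genes considered.

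Cell wall genes had 10 higher and 1 lower of 30 (median 1.08). SED1, an abundant wall glycoprotein, went from 0.00, 7.77 and 11.08 to 7.75, 12.10 and 14.18, and took 1734 RPM (1710 to 1759) at 2 h and 17459 (17384 to 17534) at 36 h. HSP150 (4.19), YGP1 (4.04), the chitin synthase CHS1 (3.64) and PIR3 (3.53) were higher as well, while UTR2, a chitin transglycosylase, was lower (−2.54). The iron list was mixed, with FIT2 (3.99) and the siderophore transporter ARN1 (3.05) higher and the high-affinity permease FTR1 (−2.56) and the reductase FRE1 (−2.23) lower of 24 genes. These are 8.33% in each direction, against 7.53% higher and 4.11% lower of all genes considered.

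**Figure D4:**
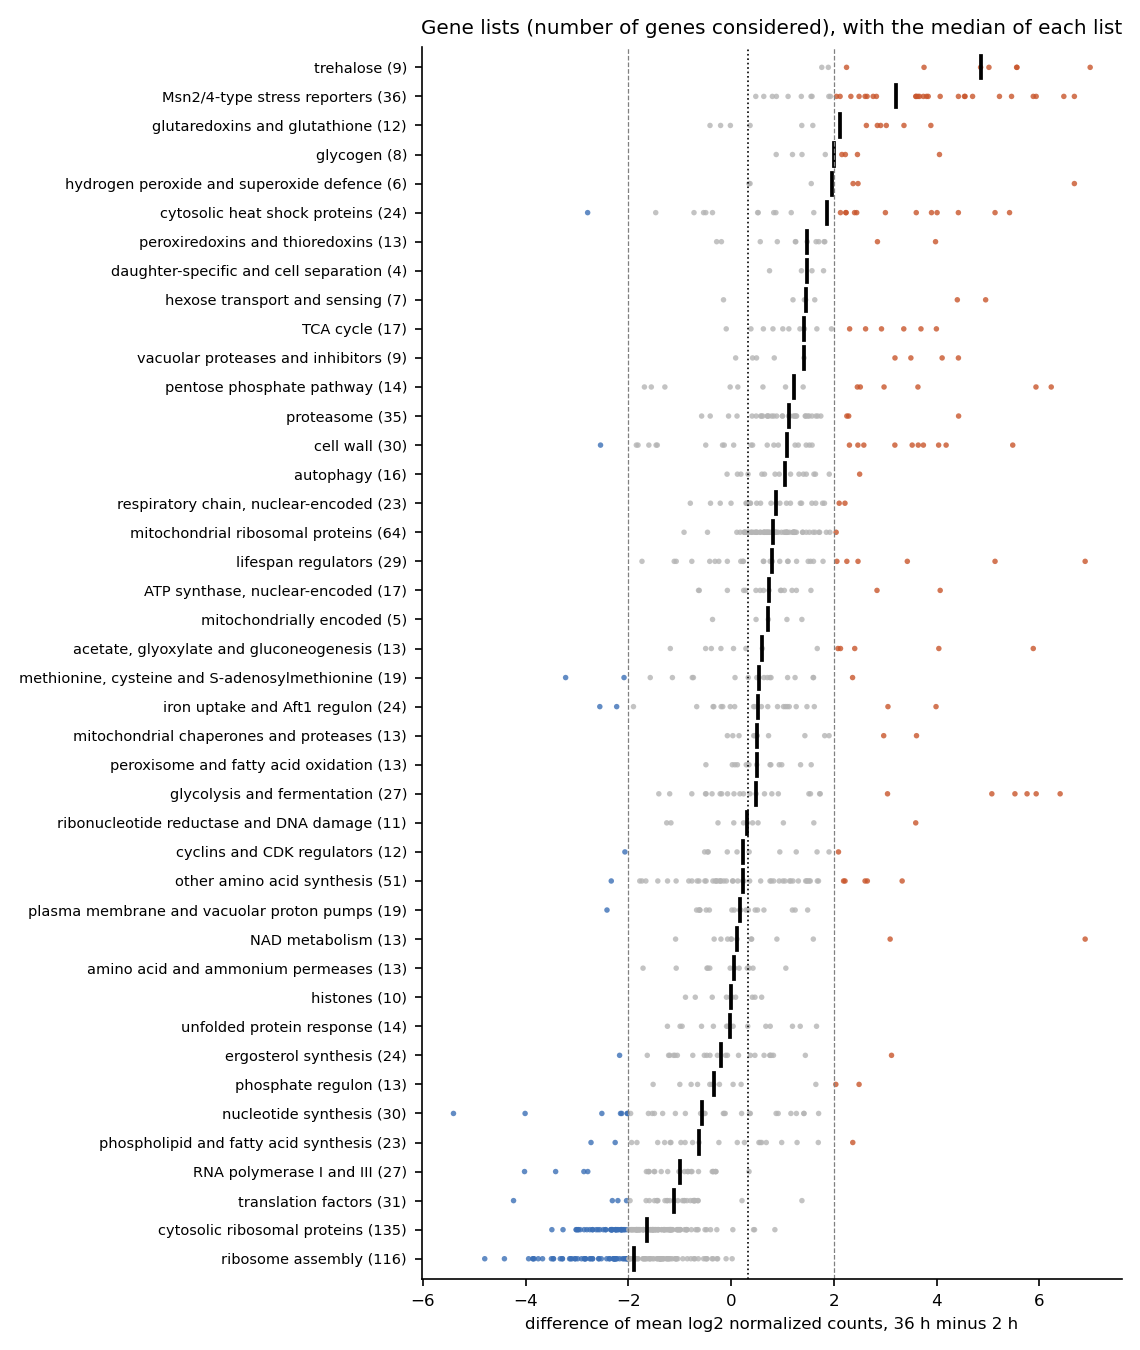
Difference of mean log2 normalized counts (36 h minus 2 h) of every gene considered in 42 gene lists, with the number of genes in parentheses. Black bars are list medians, the dotted line is the median of all 4158 genes (0.33), dashed lines mark 2 and −2, and coloured points lie past them; medians range from −1.88 for ribosome assembly to 4.86 for trehalose.

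Many of the 15 largest falls were in genes that act in ribosome assembly. URA1 (YKL216W, chromosome XI, 25215 to 26159), dihydroorotate dehydrogenase of pyrimidine synthesis, was the largest, with 5.53, 7.99 and 9.29 at 2 h and 0.00, 0.00 and 8.15 at 36 h. All 37 young cells had reads and 22 of 45 old cells did, and the summed level was 1252 RPM (1231 to 1273) and 159 (152 to 166). The probability that an old cell exceeded a young one was 0.046, so the overlap of the ages was small.

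NSR1 (YGR159C), the yeast nucleolin, was 0.00, 6.82 and 8.46 at 2 h and 0.00, 0.00 and 8.74 at 36 h, a difference of −4.80. Its share of cells with reads was 94.6% (exact Clopper-Pearson 95% interval 81.8 to 99.3) at 2 h and 33.3% (20 to 48.95) at 36 h, and 94.6% and 28.9% once each cell was thinned to 40000 reads. RRP5 (YMR229C), needed for pre-rRNA cleavage towards both subunits, went from 0.00, 7.07 and 9.17 to 0.00, 0.00 and 8.79 (−4.41). GAR1, of the particles that place pseudouridine in ribosomal RNA, was read in all 37 young cells at 3.86, 6.71 and 8.41, and in 25 of 45 old cells at 0.00, 2.63 and 6.94 (−3.94). Old cells that kept these transcripts at young levels were present for each of the 3 genes.

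The rest of the 15 were TIF4631 (an eIF4G scaffold of translation initiation, −4.23), RPA190 (the largest subunit of RNA polymerase I, −4.02), IMD4 (IMP dehydrogenase of guanine nucleotide synthesis, −4.01), MAK21 (−3.95), PUF6 (−3.86) and ERB1 (−3.85) of large subunit assembly, NOP1 (fibrillarin, −3.83), the RNA helicase DBP2 (−3.75), CBF5 (pseudouridine synthase, −3.67), INA1 (−3.54) and TSR1 of small subunit assembly (−3.50). IMD4 overlaps a non-coding gene within it. Most of these genes were still found in some old cells, from 5 of 45 for TSR1 to 26 of 45 for CBF5.

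Promoters of lower genes were searched in the same way for the elements PAC (GATGAG) and RRPE (AAAAATTT), known from genes of ribosome assembly. PAC was present in 20.5% of all promoters, 56.1% of those of lower genes and 15.3% of those of higher genes, and RRPE in 18.04%, 59.6% and 6.84%. The part of base composition was not tested here either. The median difference was 0.49 for genes with neither element, 0.15 with 1 kind and −1.23 with both. Among the 15 largest falls 12 had PAC, 14 had RRPE and 0 had AGGGG. URA1 and TIF4631 had RRPE without PAC, and INA1 had neither. The windows of NSR1 (chrVII:807707-808006, minus strand), RRP5 (chrXIII:731174-731473, minus strand) and GAR1 (chrVIII:283349-283648, minus strand) are printed from 5′ to 3′, because both elements lie close together in each of them. Capitals mark matches to GATGAG, AAAAATTT and their reverse complements, which can overlap.

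NSR1: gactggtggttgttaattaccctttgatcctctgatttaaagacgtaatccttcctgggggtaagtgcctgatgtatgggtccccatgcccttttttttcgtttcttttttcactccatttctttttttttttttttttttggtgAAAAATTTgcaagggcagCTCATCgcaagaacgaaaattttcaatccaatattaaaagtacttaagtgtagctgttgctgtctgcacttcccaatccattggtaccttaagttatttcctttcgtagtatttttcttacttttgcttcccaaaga
RRP5: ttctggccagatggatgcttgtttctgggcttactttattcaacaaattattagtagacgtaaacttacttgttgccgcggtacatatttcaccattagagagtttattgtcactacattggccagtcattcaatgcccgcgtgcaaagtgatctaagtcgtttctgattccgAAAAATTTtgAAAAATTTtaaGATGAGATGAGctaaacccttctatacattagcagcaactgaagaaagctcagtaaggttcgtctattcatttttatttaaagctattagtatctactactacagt
GAR1: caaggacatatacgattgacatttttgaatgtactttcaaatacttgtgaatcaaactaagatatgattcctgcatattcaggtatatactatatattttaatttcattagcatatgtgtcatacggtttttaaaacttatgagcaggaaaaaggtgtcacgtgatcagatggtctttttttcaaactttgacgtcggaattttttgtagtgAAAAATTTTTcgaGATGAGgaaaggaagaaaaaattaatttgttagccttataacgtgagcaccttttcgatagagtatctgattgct

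Ribosome assembly as a list had 52 lower and 0 higher genes among 116, with a median of −1.88 against 0.33 over all genes. Beside those named, the lower genes included KRE33 (−3.33), DBP3 (−3.28), NOP58 (−2.99), NOP56 (−2.84), the GTPase NOG1 (−2.75) and REA1 (−2.70), which act from early nucleolar to late steps. RIO1, a kinase of the last steps of small subunit maturation, had the highest difference of the list at 0.02. The level over the list, 3.34 ± 0.67 at 2 h, was 1.38 ± 1.04 at 36 h, with 2.23 in between at 16 h, and 33 of 45 old cells lay below the lowest young cell and 1 above the highest. With the median over genes as the level of a cell, all 45 old cells lay within the range of young cells. That range reached 0, the lowest level possible, so no old cell could have lain below it. The 16 h group is given as a level only, since both later ages would be set against the same 2 h cells.

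RNA polymerases I and III had 4 lower genes of 27 (median −0.99), RPA190, RPA34 (−3.41) and RPA135 (−2.87) of polymerase I and RPC40 (−2.79), which both enzymes share. Translation factors had 4 lower of 31 (median −1.11), namely TIF4631, the elongation factors EFT2 (−2.31) and YEF3 (−2.20), and TEF4 (−2.03). By the log2 ratio of mean normalized counts the median of these 31 genes was −0.33. EFT2 shares 91.9% of its 50-base stretches with other sequence in the genome. YEF3 was 8.94, 10.31 and 11.13 at 2 h and 0.00, 8.86 and 11.22 at 36 h, with reads in 40 of 45 old cells.

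Cytosolic ribosomal proteins had 39 lower and 0 higher genes among 135, with a median of −1.64 (−1.99 with every cell scaled to the same total). The median was −1.27 with a pseudocount of 10 and −0.98 by the log2 ratio of mean normalized counts. RPS14B (−3.49), RPL18B (−3.27) and RPL16A (−3.02) had the lowest differences, and RPL15B (0.85), RPS20 (0.46) and RPL41B (0.44) the highest. RPL15B, RPL41B and other members share sequence with their near-identical copies, and reads may be split between them. The level of the list was tight in young cells, 7.57 ± 0.20 with a range of 7.06 to 7.86, and wide in old cells, 5.92 ± 1.25 with a range of 2.44 to 7.67, so that 38 of 45 old cells lay below every young cell. Among old cells this level moved with depth, with a Pearson r of 0.70 (Spearman rho 0.77, n = 45 cells) with the number of genes detected and of 0.55 with reads, against 0.00 and −0.01 among young cells. The part of depth in the spread of ribosomal protein levels at 36 h was not tested, and with only cells of at least 100000 reads (35 and 37 cells) the median of the list was −1.39.

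Nucleotide synthesis had 7 lower and 0 higher genes of 30, namely URA1, IMD4, ADE6 of purine synthesis (−2.52), IMD3 (−2.15), URA2, the first enzyme of the pyrimidine pathway (−2.13), URA5 (−2.02) and URA7 (−2.02). Of 19 genes of methionine, cysteine and S-adenosylmethionine, 2 were lower (10.5%) and 1 higher (5.26%), with a median of 0.54. SAH1, which clears S-adenosylhomocysteine, went from reads in 37 of 37 to 27 of 45 cells (−3.22), and S-adenosylmethionine synthetase SAM1 was lower (−2.08), whereas MET5 of sulfate assimilation was higher (2.37). Phospholipid and fatty acid synthesis had 2 lower (8.70%) and 1 higher (4.35%) of 23 genes (median −0.62). Of all genes considered 4.11% were lower and 7.53% higher. Both subunits of fatty acid synthase were lower, FAS1 (−2.73) and FAS2 (−2.26), and the fatty acyl-CoA synthetase FAA1 was higher (2.37). PMA1, the proton pump of the plasma membrane, was lower (−2.42) with reads in 37 of 37 and 35 of 45 cells, while none of the other 18 pump genes considered was called.

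Other lists had from 0 to 5 genes higher and 0 or 1 lower, where 7.53% and 4.11% of all genes were. Acetate, glyoxylate and gluconeogenesis stood above that share, with 5 of 13 genes higher (38.5%, median 0.61). Histones had 0 of 10 genes called (median 0.00), amino acid and ammonium permeases 0 of 13 (median 0.06) and genes of peroxisomes and fatty acid oxidation 0 of 13 (median 0.50). Of 12 cyclins and regulators of their kinase the G1 cyclin CLN2 was higher (2.09) and the mitotic kinase CDC5 was lower (−2.07). Other amino acid synthesis had 5 higher and 1 lower of 51 (median 0.23), with ARG1 (3.33), LEU4 (2.65) and GDH1 (2.61) higher and THR1 (−2.33) lower. The transcript of GCN4, the activator of these genes, had a difference of −1.73. Ergosterol synthesis had ERG8 higher (3.12) and ERG11 lower (−2.17) of 24. Of the phosphate regulon, PHM7 (2.49, no read at 2 h) and PHM8 (2.04) were higher of 13, whereas the phosphate transporters PHO84 (−0.78) and PHO90 (−1.52) stayed below the threshold.

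A list of 29 known lifespan regulators had 6 higher and 0 lower genes, among them PNC1, HSP104, SOD2, RPN4 and RAS2 (2.06), with a median of 0.80. The differences of SCH9, the nutrient kinase whose loss extends lifespan, and of RAS1 were −1.07 and −1.11. In NAD metabolism PNC1 and BNA3 of the kynurenine branch (3.10) were the 2 higher of 13 genes, 15.4% against 7.53% of all genes considered. The others lay between −1.08 (BNA5) and 1.6 (NMA2).

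Old cells differed among themselves in their levels of stress reporters and ribosome assembly genes. By the mean over genes, 32 of the 45 old cells lay above the range of young cells for stress reporters and below it for ribosome assembly, and 1 lay above it for both. For 9 cells stress reporters lay above and ribosome assembly within the range, for 1 cell stress reporters lay within and ribosome assembly below it, and 2 cells lay within both ranges. In 31 of the 32 cells cytosolic ribosomal proteins were below the range too. By the median over genes no old cell left the range of young cells for ribosome assembly, so these joint counts hold for the mean alone. The median could not decide this, since its range in young cells reached 0, below which no cell can fall. Among old cells the levels of stress reporters and of ribosome assembly had a Pearson r of −0.61 (Spearman rho −0.65, n = 45 cells), and −0.59 without the 2 cells farthest from the median stress level. Among the 37 young cells r was −0.05. These correlations run across cells whose values share a size factor within each cell, and they are given as a description. Stress reporters had an r of 0.09 with the number of genes detected at 36 h, and ribosome assembly one of 0.46, which was 0.27 without the 2 cells farthest from the median assembly level and 0.62 among young cells. Ribosome assembly and ribosomal proteins had an r of 0.62 at 36 h and of 0.25 at 2 h.

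**Figure D5:**
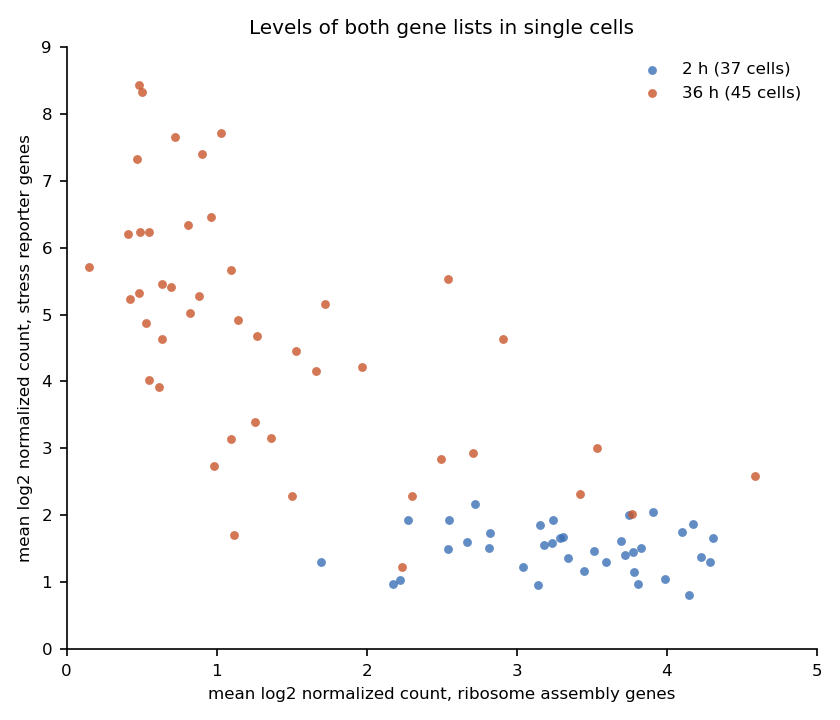
Mean log2 normalized count over the ribosome assembly genes (x axis) and over the stress reporter genes (y axis) in each cell at 2 h (37 cells) and 36 h (45 cells). Young cells sit together at stress levels of 0.81 to 2.17, while old cells spread up to 8.43, with high stress reporter levels in cells of low ribosome assembly level and 2 old cells within both ranges of young cells.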

How the data were processed

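Reads of 136 labelled cells were mapped by the authors to R64 of S. cerevisiae. The submitters' processing notes name HISAT2 2.1.0, SAMtools 1.1 and featureCounts. The authors deposited log2 normalized counts of the 125 cells that passed their filters, which are the log2 of 1 plus the reads of a gene over the DESeq2 size factor of its cell. How strand was treated is not given in the sources used here. Of 5997 gene identifiers 5693 matched the RefSeq annotation of R64 and 304 did not.

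The whole reads behind each value were recovered from the table: all 278228 values above 0 were whole within 0.05. Means, SDs among cells, differences, exact Poisson and Clopper-Pearson 95% intervals, probabilities and correlations were computed with Python 3.11.15, numpy 2.4.6, pandas 2.3.3 and scipy 1.17.1. The share of cells that a count of 0 allows was taken as 3 counts over the cells of the group. The exact Clopper-Pearson upper limits are wider, 7.87% for 0 of 45 cells and 9.49% for 0 of 37. The authors' DESeq2 test, which takes cells as replicates, was not used, since each group is 1 sample. The procedure was tested on simulated data. Uniqueness was the share of 50-base stretches of a gene found elsewhere in R64.

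Named were the 15 genes with the largest difference in each direction among genes detected in 50% or more of the cells at either age, up to 3 genes per direction of each of 42 lists, all marker genes, and the 10 gene pairs with the largest gap. Genes beyond these are further members of the lists, named after their values were seen. The comparison, members and lists were chosen with earlier results of these data known. MFA1, MFA2, AGA2, HIS3, LEU2, URA3 and MET17 were looked up but are not among the 5997 gene identifiers, so they could not be analysed. The alternatives were another scaling, thinning, pseudocount, summary, depth minimum and filter, a threshold of 1 for promoter motifs, and medians over lists in place of means.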

Additional observations from a re-analysis of the deposited data

How the results depend on the processing

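With a pseudocount of 10, 90 genes were higher and 20 lower, and by the log2 ratio of mean normalized counts 611 were higher and 102 lower, of which 246 and 48 were among the genes called in the report. The other alternatives gave 268 to 372 higher genes and 149 to 236 lower genes. All 249 named genes kept the sign of their called differences, and 1 moved by more than the SD among cells with the pseudocount of 10 and 11 with the ratio of means, 7 of them bud or daughter genes. Of 42 list medians 1 moved with each of these, and the small medians of NAD metabolism (−0.06 with every cell scaled to the same total), ergosterol synthesis (0.33 by the ratio of means), nucleotide synthesis (0.04 by the ratio of means), proton pumps (−0.13 with the same total), phosphate regulon, histones, amino acid permeases and unfolded protein response changed sign under at least 1 alternative. With the median over genes in place of the mean as the level of a cell, the number of old cells within the range of young cells moved for 18 of 42 lists, to 9 for stress reporters and to 45 for ribosome assembly. For ribosome assembly the range of this median in young cells reached 0, so no old cell could lie below it. At a threshold of 1, AGGGG was in 41.5% of promoters of higher and 12.4% of lower genes, and PAC and RRPE in 43.8% and 46.2% of lower genes. No paired analysis was possible because cell numbers only name cells and no test was made. At this depth 62.9% of the values of the table were 0, so absence of reads in a cell is not absence of the transcript.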

Other observations

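Of the 313 higher genes 195 lay outside the 42 lists, and of the 171 lower genes 53. The following were chosen after their values were seen. STL1, a glycerol symporter, and TMA10, a protein that associates with ribosomes, had no read in the 37 young cells and reads in 66.7% and 62.2% of old cells, with differences of 5.32 and 3.41. Among the other higher genes were the butanediol dehydrogenases BDH1 (4.27) and BDH2 (3.79), the mitochondrial pyruvate carrier MPC3 (3.64), xylulokinase XKS1 (3.64), the glyoxalase GLO1 (3.27), the copper-binding protein CRS5 (3.81) and the cell wall integrity kinase SLT2 (2.66). NRG1, a glucose-dependent repressor (2.89), and RME1, a repressor of meiosis (3.69), were higher too. Lower genes outside the lists included the ribosome assembly factors NIP7 (−3.38), SNU13 (−3.30), SPB1 (−3.08), MRD1 (−2.91), and ASC1, a component of the small subunit (−2.64). YHB1, the flavohemoglobin that removes nitric oxide, was lower as well (−2.93), with reads in 94.6% of young cells and 53.3% of old cells.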
